A study of Mus musculus with 19 samples.

Results

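Day-2 cells were mouse embryonic stem (ES) cells of a Rex1-GFPd2 reporter line that had left the undifferentiated state for 2 days, and they were set against undifferentiated cells of the same line. The reporter places a destabilised green fluorescent protein (GFP) under Rex1 (Zfp42), which naive cells express, so GFP fades soon after that gene is switched off. The day-2 group held 2 libraries, chosen by their titles and their label of 2 days of differentiation, and the undifferentiated group held 1 library, together 3 of the 19 libraries of the study. The study as a whole followed day-2 cells sorted as negative for SSEA1 (a surface sugar antigen of mouse ES cells) and GFP to day 15 with or without AICAR, an activator of the kinase AMPK, and derived GFP-positive lines from them.

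The day-2 cells had no drug treatment, grew on gelatin in an alpha-MEM medium with fetal bovine serum, were GFP negative and were sorted as SSEA1 negative and GFP negative. Only 1 of the 2 titles mentions the sort, whereas the sorting label is the same for both. The undifferentiated cells were GFP positive, were not sorted, and grew on gelatin in a GMEM medium with serum replacement, leukaemia inhibitory factor (LIF) and inhibitors of the kinases MEK and GSK3. Time, medium, loss of LIF, loss of both inhibitors and the sort therefore change together between the groups and cannot be told apart. Whether the day-2 libraries came from separate cultures is not stated in the labels, and each p therefore reflects the spread of these samples alone, which may be technical. The undifferentiated group is 1 library of 1 reporter line, and the test assumes that it varies like the day-2 libraries.

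Naive ES cells correspond to the epiblast of the embryo before implantation. LIF acts through the receptor chains Lifr and Il6st and the factor Stat3, and GSK3 inhibition keeps beta-catenin, the effector of Wnt signalling, stable. MEK inhibition blocks the ERK kinases that fibroblast growth factor (FGF) signals switch on. When these supports are removed, ES cells shut down naive genes, pass through a formative state like the epiblast after implantation, polarise as an epithelium and become able to answer germ layer signals.

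Pou3f1, a POU factor of the formative epiblast, had 147 and 134 CPM (reads scaled to a common library size) in the day-2 libraries, against 0.46 CPM, which is 3 reads, in the undifferentiated library, a ratio of 306 with a 95% counting interval of 105 to 1490. Fgf5, an FGF ligand of the epiblast after implantation, had 42.7 and 41.5 CPM in day-2 cells, against 1 read (0.153 CPM) in undifferentiated cells, a ratio of 275 (49.1 to 10900). Prdm14, a repressor that guards the naive state, had 0.128 and 0.293 CPM in day-2 cells, against 46.2 CPM in undifferentiated cells, and was 225-fold lower (76.3 to 1100). All 3 markers separated the groups in the direction their labels give. Zfp42, whose locus drives the reporter, had 27.6 and 21.1 CPM in day-2 cells, against 454 CPM in undifferentiated cells. The general pluripotency factor Pou5f1 was not called, with 1410 and 1210 CPM in day-2 cells, against 1650 CPM in undifferentiated cells (log2 fold change -0.33 ± 0.18, SE; edgeR adjusted p = 0.15). The RNA is from bulk samples, in which fewer cells of a type and less RNA per cell cannot be told apart.

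The day-2 libraries held 7655442 and 6671053 reads in genes, and the undifferentiated library held 6811516. Of 22756 gene entries, 12698 passed the expression filter and were tested with edgeR. At an adjusted p under 0.05, 2304 genes were higher (18.1% of those tested) and 2265 were lower (17.8%) in day-2 cells. In both day-2 libraries past 2-fold, with no test, 1513 genes were higher (11.9%) and 1107 were lower (8.72%), and 0 genes were past 2-fold upward in 1 day-2 library and downward in the other. The genes described here as risen, fallen or called meet both conditions, the adjusted p and more than 2-fold in each day-2 library, so their groups do not overlap. By that rule 1362 genes rose (10.7%) and 1058 fell (8.33%), together 2420 genes (19.1%). DESeq2, another count test, called 746 higher and 685 lower by the same rule. Fits with a single day-2 library take their spread from the other groups that hold several libraries, all of later stages or derived lines. They assume that a lone sample varies like those groups. Whether a call lost in such a fit came from that spread or from the library left out was not tested. Egr1, whose call was lost in both fits, kept log2 fold changes of -3.24 without library 1 and -3.47 without library 2.

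The day-2 libraries placed largely the same genes past 2-fold. Day-2 library 1 had 1707 genes past 2-fold upward and library 2 had 1837, so the 1513 shared genes are 88.6% and 82.4% of each. Downward, library 1 had 1329 and library 2 had 1362, so the 1107 shared genes are 83.3% and 81.3% of each. The libraries also differed from each other. Their read counts differed by a chi-square of 7.27 per degree of freedom, where 1 is counting noise alone, against 45.1 and 48.1 when each was compared with the undifferentiated library. Library 2 exceeded library 1 by more than 2-fold at 203 genes, and library 1 exceeded library 2 at 117. The difference followed gene length. Among 9909 genes with at least 20 reads in each library, the median log2 ratio of library 2 over library 1 was -0.15 for models under 500 bases and 0.56 for the 134 genes over 8000 bases. For those 134 genes the median log2 ratio to the undifferentiated library was -0.27 in day-2 library 1 and 0.36 in library 2, so values of very long genes are given with both libraries side by side.

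**Figure D1:**
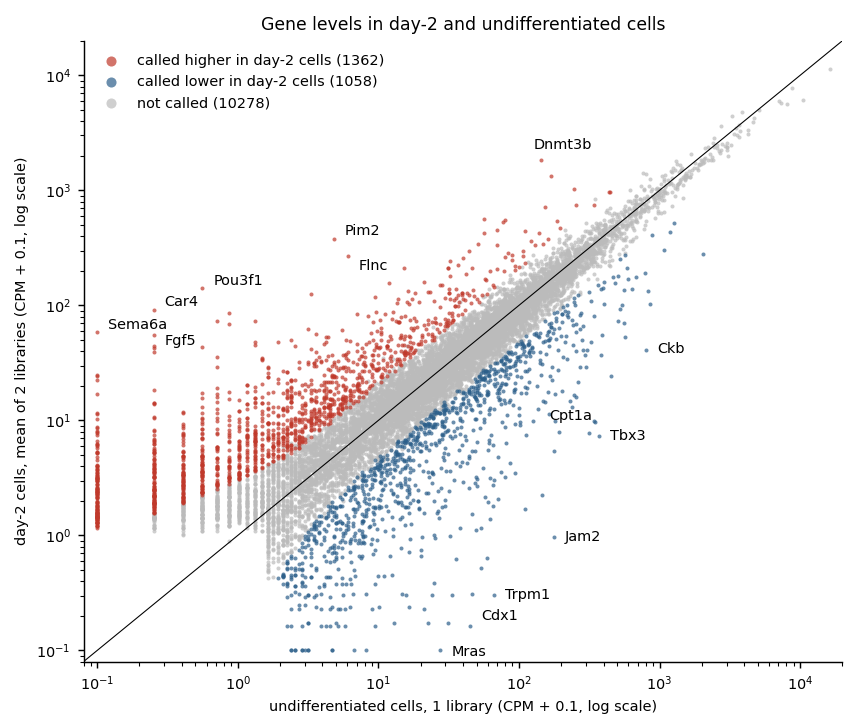
Mean level in the day-2 libraries (vertical axis) against the level in the undifferentiated library (horizontal axis) for the 12698 genes tested, in CPM + 0.1 on log axes. Red points are the 1362 genes called higher in day-2 cells, blue points the 1058 called lower, grey points the rest, and the line marks equal levels. Points at the left edge, such as Sema6a, had no reads in undifferentiated cells, and points at the lower edge, such as Mras, had none in day-2 cells.

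The genes with the highest fitted fold changes were read almost only in day-2 cells. A fitted fold over 0 reads depends on the prior count, so the order of such genes is no measure of the size of their rise. Sema6a, a membrane semaphorin that guides cells and axons, had 53 and 63.9 CPM in day-2 cells, against 0 reads in the undifferentiated library. With a floor of 3 reads for a group without any, it was at least 127-fold higher. Enpp2 (autotaxin, which makes the lipid signal lysophosphatidic acid), Cthrc1 (a secreted collagen-repeat protein) and the transmembrane protein gene Tmem54 also had 0 reads in undifferentiated cells and were at least 53.3-fold, 52.5-fold and 48.5-fold higher. Has2, the hyaluronan synthase, counted under a joined name with its antisense gene, was at least 37.0-fold higher. Car4, a carbonic anhydrase on the cell surface, had 97.8 and 86.1 CPM in day-2 cells, against 1 read (0.153 CPM) in undifferentiated cells, a ratio of 602 (95% counting interval 108 to 23800). The other genes among the 20 highest fitted rises were Jakmip2, Syt13, Cdh10, Rbbp8nl, Fat3, Dcn, Spon1, Pde4b, Mcoln3, Ccdc64b, Prom2, Aadat, Cxcl12 and Cdcp1. Each of them had 0 reads in undifferentiated cells, and their lower bounds ran from 24.9-fold for Jakmip2 to 12.9-fold for Cdcp1, below the ratios of 306 for Pou3f1 and 275 for Fgf5, which are not among these 20.

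The largest fitted falls took genes from a clear level to nearly none. Mras, a Ras-family GTPase, had 0 reads in both day-2 libraries, against 27.5 CPM in undifferentiated cells, and was at least 134-fold lower. Trpm1, a cation channel, had 0.257 and 0.147 CPM in day-2 cells, against 66.3 CPM in undifferentiated cells, which is 3 reads against 432 and 323-fold lower (110 to 1570). Jam2, a junctional adhesion molecule, had 1.28 and 0.44 CPM in day-2 cells, against 178 CPM in undifferentiated cells (log2 fold change -7.62 ± 0.26, adjusted p = 2.16e-25). In these genes the groups lie far apart relative to the gap between the day-2 libraries. Slc15a1, a transporter of small peptides, had 0 and 0.147 CPM in day-2 cells, against 31.3 CPM in undifferentiated cells, and was 458-fold lower (81.2 to 18200). Slc51a, a subunit of the organic solute transporter, had 0 reads in day-2 cells, against 8.13 CPM in undifferentiated cells, and was at least 39.6-fold lower. The remaining 15 of the 20 largest fitted falls were Cdx1, Inhbb, Tcl1, Gm15698, Nanos3, Prdm14, Gm7325, Gpr126, Khdc3, Ntn1, Mobp, 2210409E12Rik, Serpinb6c, Notum and Sp5.

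Among genes with at least 150 CPM in the higher group, a limit set after the values were seen, 54 rose and 115 fell. Pim2, a serine/threonine kinase that favours survival and translation, had 418 and 339 CPM in day-2 cells, against 4.76 CPM in undifferentiated cells (log2 fold change 6.31 ± 0.28, adjusted p = 6.98e-22). Flnc, the actin cross-linker filamin C, had 225 and 314 CPM in day-2 cells, against 5.98 CPM in undifferentiated cells (5.49 ± 0.27). Trio, an exchange factor for small GTPases, had 132 and 180 CPM in day-2 cells, against 11.8 CPM in undifferentiated cells. On the falling side, Ckb, the brain-type creatine kinase, had 46.7 and 35.6 CPM in day-2 cells, against 807 CPM in undifferentiated cells (-4.29 ± 0.18, adjusted p = 1.49e-22). Mylpf, a myosin light chain, Spp1, the matrix protein osteopontin, Myof, a membrane repair protein, and Cd97, an adhesion receptor, stood at 5.42 to 13 CPM in the day-2 libraries, against 181 to 350 CPM in undifferentiated cells. Per length, the authors' RPKM values (reads scaled by gene length and library size) put Dnmt3b at 699 and 671 in day-2 cells, against 50.8 in undifferentiated cells. Mt2, a metallothionein, stood at 1290 and 972 RPKM in day-2 cells, against 261 RPKM in undifferentiated cells.

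Gene lists for pathways and cell types were compared with the shares of all tested genes that rose (10.7%) or fell (8.33%), and with the median log2 fold change of all tested genes, 0.01. In 46 of the 56 lists at least 1 gene rose and at least 1 fell. Where a list's count above 2 moved by more than 1.5 times without a day-2 library or with DESeq2, the counts without library 1, without library 2 and with DESeq2 follow it in parentheses, in that order.

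**Figure D2:**
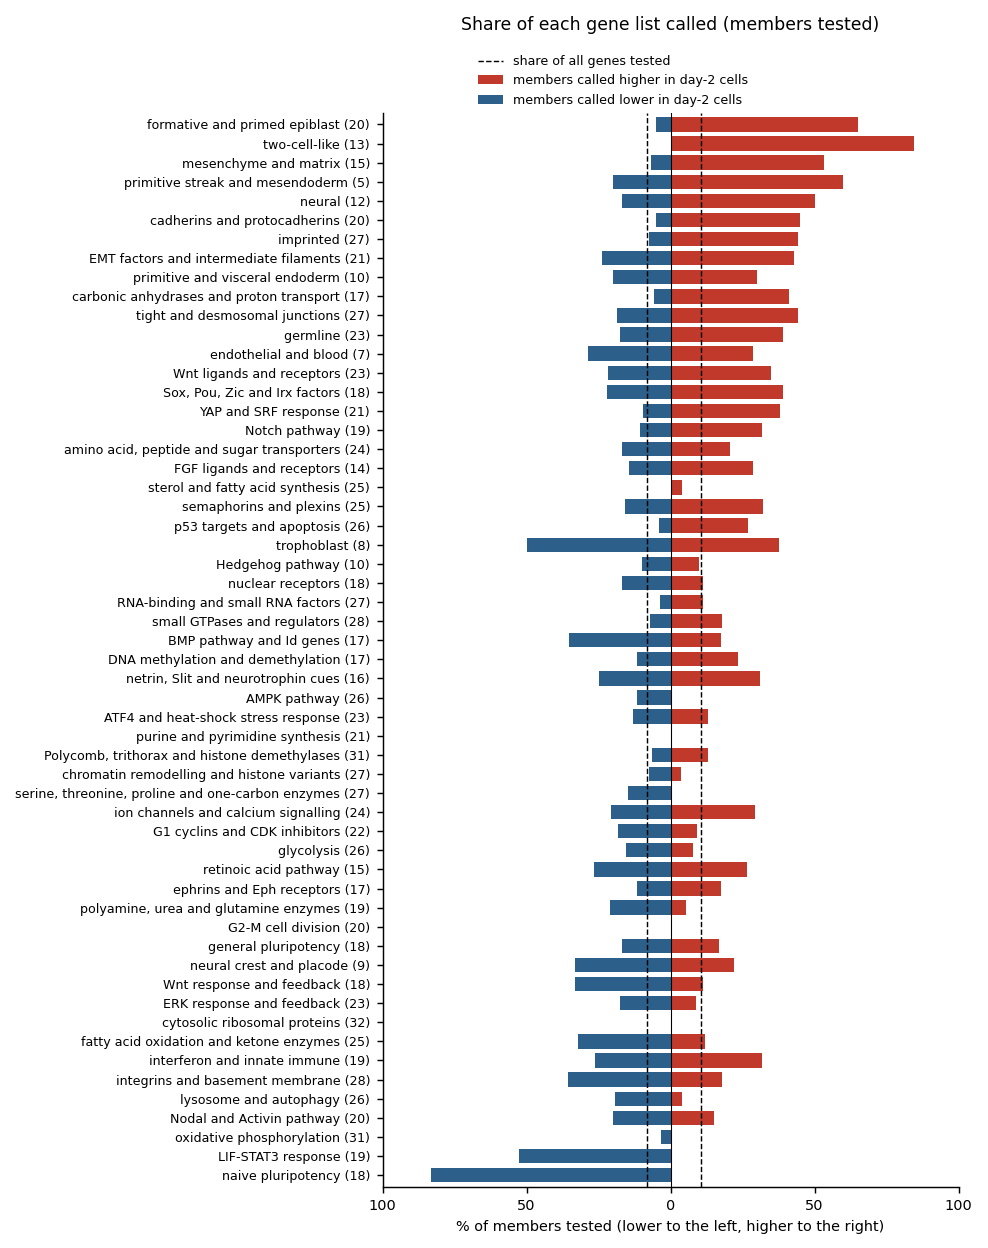
Percent of the tested members of each of the 56 gene lists that were called higher in day-2 cells (red, to the right) or lower (blue, to the left), with the number of members tested in parentheses. Lists run from the highest to the lowest median log2 fold change, and dashed lines mark the shares of all 12698 genes tested (10.7% higher, 8.33% lower). The shares called higher are largest for 2-cell-like and epiblast genes, and the shares called lower are largest for naive, LIF-STAT3 and trophoblast genes.

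Several Wnt response genes fell by large factors, and 2 rose. Of 24 listed genes 18 passed the filter, and of these 6 fell and 2 rose. Notum, a secreted enzyme that inactivates Wnt ligands and is itself switched on by Wnt, had 0.642 and 0.44 CPM in day-2 cells, against 59.1 CPM in undifferentiated cells (log2 fold change -6.71 ± 0.32, adjusted p = 8.13e-21). Cdx1, a homeobox gene that Wnt activates, had 0.128 and 0 CPM in day-2 cells, against 45 CPM in undifferentiated cells, a single read against 293 and 657-fold lower (117 to 26000). Sp5, a zinc finger repressor that is a direct Wnt target, had 0.128 and 0.44 CPM in day-2 cells, against 24.6 CPM in undifferentiated cells (-6.40 ± 0.43). Porcn, which attaches the lipid that Wnt ligands need, fell by 5.99 on the log2 scale. Axin2, the classic feedback inhibitor, fell less, with 11.3 and 16.8 CPM in day-2 cells, against 43 CPM in undifferentiated cells (-1.62 ± 0.22). Lef1, a nuclear partner of beta-catenin, moved the other way, with 49 and 43.5 CPM in day-2 cells, against 3.99 CPM in undifferentiated cells (3.53 ± 0.27), and Nkd2, a feedback inhibitor, rose by 3.13 ± 0.62. Axin1, the scaffold of the complex that degrades beta-catenin, had 90.9 and 91.7 CPM in day-2 cells, against 93.9 CPM in undifferentiated cells.

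Wnt receptors moved both ways. Of 34 listed ligands, receptors and secreted inhibitors 23 passed the filter, 8 rose (6, 5 and 4) and 5 fell. The receptor gene Fzd2 had 61.4 and 51.3 CPM in day-2 cells, against 3.53 CPM in undifferentiated cells (3.99 ± 0.27, adjusted p = 9.8e-16), and Fzd7 had 132 and 127 CPM in day-2 cells, against 39.4 CPM in undifferentiated cells (1.71 ± 0.19). Fzd5 and Fzd10 fell, by 1.60 and 1.65 on the log2 scale. The co-receptor Ror2 fell by 2.54 on the log2 scale, while its relative Ror1 rose by 3.02 ± 0.57 and stood at 6.42 and 6.30 CPM in day-2 cells, against 0.767 CPM in undifferentiated cells. The secreted inhibitors split too, with Sfrp2 higher (2.33 ± 0.30) and Sfrp1 lower (-1.46 ± 0.23). The ligand Wnt3 rose to 3.47 and 3.08 CPM in day-2 cells, against 2 reads in undifferentiated cells, a ratio of 10.7 (2.81 to 90.9). DESeq2 did not make this call, nor did the fits that left out either day-2 library (edgeR adjusted p = 0.18 and 0.163) or pooled the spread of all 19 libraries.

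LIF-STAT3 response genes fell more often than they rose. Of 19 genes tested of 20 listed, 10 fell and 0 rose by edgeR, with a median log2 fold change of -1.27; 1 gene was higher at an unadjusted p under 0.05, and DESeq2 called 0 higher. Several of the 10 are also naive factors (Tfcp2l1, Klf4, Klf5). Bcl3, a nuclear partner of NF-kappaB, had 1.54 and 0.586 CPM in day-2 cells, against 53.7 CPM in undifferentiated cells (-5.60 ± 0.30, adjusted p = 3.9e-19). Socs3, the feedback inhibitor of the LIF receptor, had 1.93 and 1.90 CPM in day-2 cells, against 29.8 CPM in undifferentiated cells (-3.95 ± 0.29). The 10 also include parts of the pathway itself, among them Stat3 and Il6st. Stat3 had 15.9 and 13.8 CPM in day-2 cells, against 78.3 CPM in undifferentiated cells (-2.39 ± 0.19), and the receptor genes Il6st and Lifr fell by 1.74 and 1.98 on the log2 scale. Jak1, the kinase between receptor and Stat3, had 56.2 and 64.6 CPM in day-2 cells, against 61.1 CPM in undifferentiated cells, and was not called.

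The promoters of genes from both pathways, and of SRF targets described further on, were searched for the binding motifs of their factors in the 250 bases before the gene start. The windows with a match are shown because they carry the response elements named for these pathways, with the match in capitals and 20 bases on each side (RefSeq promoters, build GRCm38.p6). Socs3 (chr11:117969492-117969540, minus strand) holds the STAT motif TTCNNNGAA, Sp5 (chr2:70474799-70474845, plus strand) the TCF motif CTTTGAT, and Srf (chr17:46556215-46556264, minus strand) and Myl9 (chr2:156775283-156775332, plus strand) the CArG box of serum response factor, which lies in the Srf window in 2 copies:
Socs3: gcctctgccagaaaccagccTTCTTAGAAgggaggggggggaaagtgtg
Sp5: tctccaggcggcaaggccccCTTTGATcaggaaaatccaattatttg
Srf: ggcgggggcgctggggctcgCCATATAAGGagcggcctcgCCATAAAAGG
Myl9: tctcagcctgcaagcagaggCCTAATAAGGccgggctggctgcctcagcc

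Both strands were searched, and matches were counted over all promoters of the same length. TTCNNNGAA stood in 8.13% of 27025 promoters, in 7.59% of those of genes that rose and in 8.57% of those of genes that fell. CTTTGAA or CTTTGAT stood in 8.63% of all promoters, 6.36% of those that rose and 8.18% of those that fell. The CArG box stood in 1.62%, 2.05% and 1.66%. Of the LIF-STAT3 genes that fell, 1 of 9 with a promoter sequence held a STAT match, and of the Wnt response genes that fell, 1 of 3 held a TCF match. Of the SRF and YAP response genes that rose, 2 of 7 held a CArG box. A match describes letters in these windows and is not a measured binding site.

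ERK response genes did not move as a block. Of 23 tested, 4 fell (3, 0 and 3) and 2 rose, with a median of -0.21. Egr1, an immediate early transcription factor, had 34.1 and 39.8 CPM in day-2 cells, against 385 CPM in undifferentiated cells (-3.38 ± 0.17, adjusted p = 3.2e-20). Dusp4, a phosphatase that switches ERK off, had 73.8 and 75.2 CPM in day-2 cells, against 10.1 CPM in undifferentiated cells (2.88 ± 0.22), and Dusp6, its cytoplasmic relative, had 112 and 93.3 CPM in day-2 cells, against 62.3 CPM in undifferentiated cells (0.72 ± 0.18), short of 2-fold. Ier2 and Junb fell by 1.38 and 1.27 on the log2 scale, and Etv4 and Etv5, ETS factors downstream of FGF, were not called. The falls of Egr1, Ier2 and Junb were not called against the 8 colony lines, in which Egr1 ran from 9.34 to 163 CPM of reads in genes, and those of Ier2 and Junb not against the sorted lines either. The fall of Egr1 was also not called when the spread of all 19 libraries was pooled or when either day-2 library was left out (adjusted p = 0.219 and 0.203), and those of Ier2 and Junb not without day-2 library 2 (adjusted p = 0.0826 and 0.0817). Egr2, another immediate early gene, was lower at 1.03 and 1.03 CPM in day-2 cells, against 4.91 CPM in undifferentiated cells, a call lost with DESeq2, with the pooled spread and without either day-2 library (adjusted p = 0.379 and 0.386). Its difference turned to 0.22 against the colony lines. The other gene that rose was Fosb, also an immediate early gene. Fosb had 12.9 and 26.5 CPM of reads in genes in day-2 cells, against 5.58 CPM in undifferentiated cells. This call was lost without either day-2 library (log2 fold change 2.18 without library 1 and 1.15 without library 2).

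FGF genes moved both ways. Of 14 genes tested 4 rose and 2 fell. Fgf15 had 15.3 and 15.5 CPM in day-2 cells, against 0.767 CPM in undifferentiated cells (4.30 ± 0.44), and the receptor Fgfr2 had 18 and 22.9 CPM in day-2 cells, against 1.07 CPM in undifferentiated cells (4.22 ± 0.40). Fgfr1, the main receptor of ES cells, had 163 and 149 CPM in day-2 cells, against 125 CPM in undifferentiated cells, and Fgf4, the autocrine ligand that starts differentiation, had 44.5 and 30.6 CPM in day-2 cells, against 31.2 CPM in undifferentiated cells. Neither was called. The falls were those of Fgf10, with 0 reads in day-2 cells, against 2.92 CPM in undifferentiated cells, at least 14.2-fold lower, and of Fgf17 (-1.46 ± 0.39). Both calls were lost without either day-2 library (adjusted p = 0.063 and 0.0567 for Fgf10, 0.207 and 0.121 for Fgf17). Fgf8 had 3.85 and 2.93 CPM in day-2 cells, against 3 reads in undifferentiated cells, a ratio of 7.43 (2.40 to 37.2), and its rise was lost in the same fits (adjusted p = 0.214 and 0.153). DESeq2 called neither Fgf17 nor Fgf8.

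Nodal pathway genes moved both ways. Of 20 tested 4 fell and 3 rose. Lefty2, a Nodal antagonist that is a direct target, had 27.5 and 30.3 CPM in day-2 cells, against 299 CPM in undifferentiated cells (-3.37 ± 0.17, adjusted p = 3.2e-20), while the related antagonist gene Lefty1 had 108 and 112 CPM in day-2 cells, against 151 CPM in undifferentiated cells, and was not called. Smad7, the inhibitory Smad, fell by 1.84 on the log2 scale, but not against the sorted or colony lines. Skil, a repressor that Smad proteins induce and degrade, had 186 and 237 CPM in day-2 cells, against 31 CPM in undifferentiated cells (2.77 ± 0.21). Inhbb, an activin subunit, had 0 reads in day-2 cells, against 6.6 CPM in undifferentiated cells, and was at least 32.1-fold lower. Nodal itself, at 55.8 and 57 CPM in day-2 cells, against 81.3 CPM in undifferentiated cells, was short of 2-fold.

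In the BMP group, the ligand fell while Id genes parted. Of 17 genes tested 6 fell and 3 rose. Bmp4 had 3.21 and 2.05 CPM in day-2 cells, against 64.9 CPM in undifferentiated cells (-4.60 ± 0.25, adjusted p = 4.8e-19), and Bmp7 fell by 2.80 on the log2 scale. Id genes encode inhibitors of differentiation factors and are standard BMP targets. Id1 had 44.7 and 52.6 CPM in day-2 cells, against 11.7 CPM in undifferentiated cells (2.06 ± 0.22), and Id2 rose by 3.22 ± 0.35, whereas Id3 fell by 1.42 and Id4 by 3.08 on the log2 scale. Id4 is counted under a joined name with a noncoding RNA. The fall of Id3 was not called against the sorted or colony lines, nor without day-2 library 1 (adjusted p = 0.0517).

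Notch pathway genes rose more often than they fell. Of 19 genes tested 6 rose and 2 fell, with a median of 0.50. Dll1, a Delta-type ligand, had 61.1 and 75.4 CPM in day-2 cells, against 0.767 CPM in undifferentiated cells (6.44 ± 0.35, adjusted p = 8.0e-19), and Dll3 and Jag2 rose by 3.64 ± 0.41 and 1.70 ± 0.22. Of the receptors, Notch3 rose and Notch4 fell, while Notch1 and Notch2 were not called. Notch3 had 169 and 257 CPM in day-2 cells, against 46 CPM in undifferentiated cells (2.21 ± 0.21), and Notch4 had 1.54 and 1.32 CPM in day-2 cells, against 46.3 CPM in undifferentiated cells (-5.00 ± 0.28). Of the Hes factors on the list, Hes6 rose (2.69 ± 0.28) and Hes1 fell (-1.14 ± 0.17). The fall of Hes1 was not called against the sorted or colony lines. Rbpj, the nuclear mediator, had 130 and 128 CPM in day-2 cells, against 159 CPM in undifferentiated cells.

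Hedgehog genes changed singly, and their shares, 10.0% each way, were near those of all genes. Retinoic acid genes moved both ways, with shares of 26.7% higher and 26.7% lower. Of 10 Hedgehog genes tested Gli2, an activator at the end of the pathway, fell to 11.7 and 10.3 CPM in day-2 cells, against 82.3 CPM in undifferentiated cells (-2.90 ± 0.19), and Smo, its membrane transducer, rose by 1.26 ± 0.19. Of 15 retinoic acid genes tested 4 rose (2, 2 and 2) and 4 fell (3, 3 and 2). Crabp2, which carries retinoic acid to its receptors, rose by 3.46 ± 0.38, while the response genes Stra8 and Meis2 fell by 3.22 and 2.81 on the log2 scale, Stra8 not when set against the colony lines. The receptor Rxrg had 10.9 and 9.96 CPM in day-2 cells, against 1 read in undifferentiated cells, a ratio of 68.2 (12.1 to 2710). The receptors Rara and Rarg, at 39.9 to 137 CPM in day-2 cells, against 42 and 116 CPM in undifferentiated cells, were not called.

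**Figure D3:**
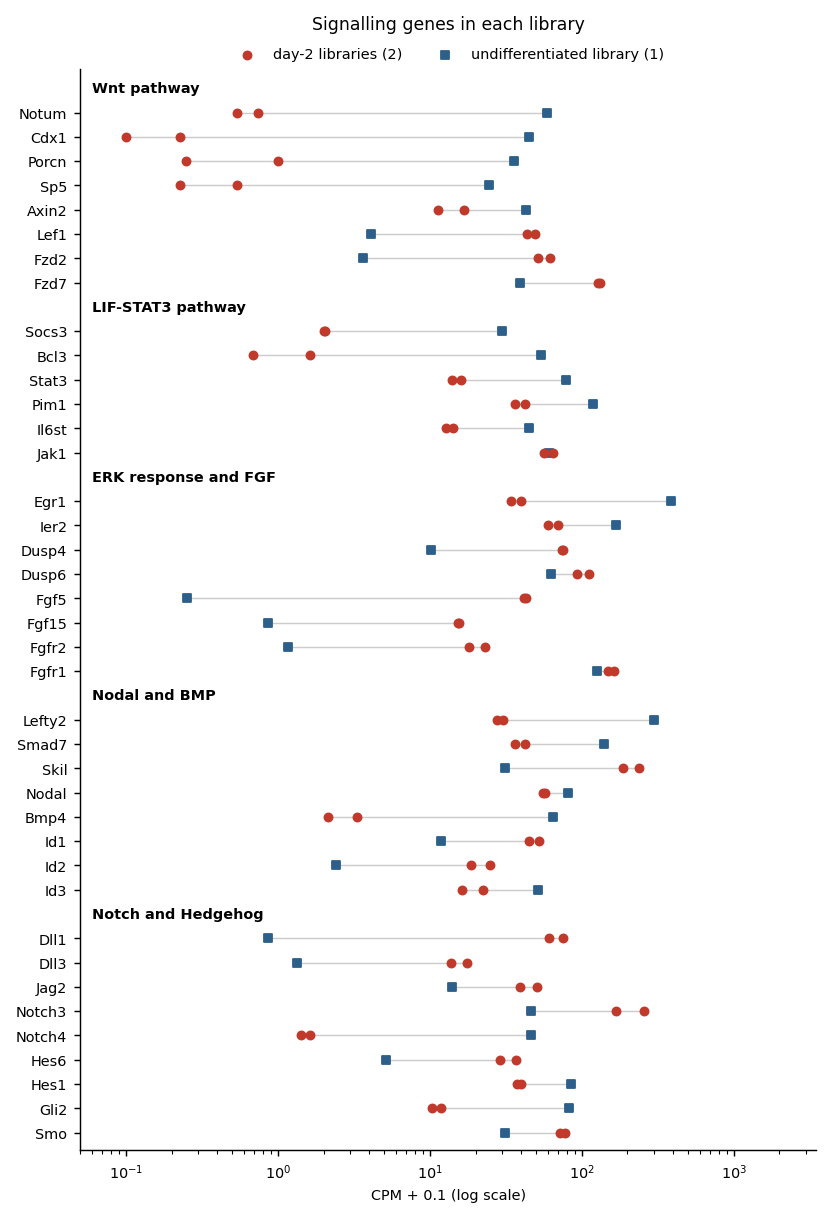
Levels of signalling genes in each library, in CPM + 0.1 on a log axis, with the 2 day-2 libraries as red circles and the undifferentiated library as blue squares. The day-2 circles lie close together in most rows, for example Stat3 at 15.9 and 13.8 CPM, and lie far left of the square for Notum, Cdx1, Sp5 and Notch4 and far right of it for Fgf5 and Dll1.

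The epithelial regulators Esrp1 and Grhl2 rose. Esrp1, an epithelial splicing regulator, had 70.9 and 75 CPM in day-2 cells, against 1.23 CPM in undifferentiated cells (5.87 ± 0.32, adjusted p = 4.4e-19), and Grhl2, a factor that opens epithelial enhancers, had 46.9 and 43.5 CPM in day-2 cells, against 1.23 CPM in undifferentiated cells (5.18 ± 0.34). Of 21 genes of the list of epithelial-mesenchymal factors and intermediate filaments, 9 rose (5, 3 and 6) and 5 fell, with a median of 1.15. The mesenchymal filament gene Vim had 104 and 98.3 CPM in day-2 cells, against 539 CPM in undifferentiated cells (-2.41 ± 0.16). Zeb1, a repressor of epithelial genes, fell by 3.68 on the log2 scale, while Zeb2, counted under a joined name, rose (2.61 ± 0.70) to 3.34 and 4.40 CPM in day-2 cells. DESeq2 did not call Zeb2, nor did the pooled spread or the fits without day-2 library 1 or 2 (adjusted p = 0.133 and 0.227). The keratin genes Krt18 and Krt8 rose (3.45 ± 0.29 and 1.66 ± 0.25), as did Nes, an intermediate filament of progenitor cells, and Krt42 and the epithelial factor Elf3 fell. The calls of Krt18 and Krt8 were lost with the spread of all 19 libraries pooled and without either day-2 library (adjusted p = 0.374 and 0.393 for Krt18, 0.64 and 0.598 for Krt8), that of Krt8 against the colony lines too, and that of Krt42 with DESeq2. Snai1, Snai2 and Twist1, which drive mesenchymal change, stood at 0.513 to 2.78 CPM in the day-2 libraries, against 1.53 to 4.30 CPM in undifferentiated cells, and were not called.

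Junction and cadherin genes rose more often than they fell. Of 27 tight, gap and desmosomal junction genes tested 12 rose (5, 6 and 6) and 5 fell (3, 2 and 5), with a median of 0.91, and of 20 cadherins and protocadherins 9 rose and 1 fell, with a median of 1.20. Pcdh1, a protocadherin of epithelia, had 127 and 125 CPM in day-2 cells, against 3.22 CPM in undifferentiated cells (5.28 ± 0.27, adjusted p = 5.7e-20). Cdh1 (E-cadherin), the main cadherin of ES cells, had 695 and 811 CPM in day-2 cells, against 340 CPM in undifferentiated cells (1.15 ± 0.19). This rise lost its call without day-2 library 2 (adjusted p = 0.0576). Among tight junction genes Cldn6 had 63 and 62 CPM in day-2 cells, against 3.07 CPM in undifferentiated cells (4.34 ± 0.27), and the claudin Cldn7, the adaptor Cgn (cingulin) and the adhesion protein Epcam rose by 3.23 ± 0.30, 2.77 ± 0.21 and 2.61 ± 0.20. The gap junction gene Gja1 (connexin 43) had 183 and 189 CPM in day-2 cells, against 42.2 CPM in undifferentiated cells. The desmosomal genes Dsp and Dsg2 fell by 2.32 and 1.29 on the log2 scale, and Pkp2 rose by 1.70 ± 0.19. Cldn6, Dsp and Dsg2 were not called when either day-2 library was left out (adjusted p from 0.0617 to 0.093), nor Cldn7 without day-2 library 1 (adjusted p = 0.0596).

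Basement membrane genes fell more often than they rose. Of 28 integrin and basement membrane genes tested 10 fell and 5 rose (2, 2 and 2), with a median of -0.37. Fn1 (fibronectin) had 224 and 329 CPM in day-2 cells, against 2030 CPM in undifferentiated cells (-2.87 ± 0.18, adjusted p = 1.1e-16). Nid1 (nidogen, which links laminin to collagen IV) had 9.76 and 9.82 CPM in day-2 cells, against 126 CPM in undifferentiated cells (-3.69 ± 0.18). Laminin chains went both ways. Lama1, Lamb2 and Lamc1 fell by 2.59, 2.09 and 1.38 on the log2 scale, while Lamb1 had 209 and 280 CPM in day-2 cells, against 32.5 CPM in undifferentiated cells (2.91 ± 0.21). The calls of Lama1, Lamb1 and Lamc1 were lost when all 19 libraries shared the spread, and when either day-2 library was left out (adjusted p from 0.205 to 0.361). Of the receptor subunits, Itga3, which binds laminin, rose by 2.42 ± 0.20, and Itga5, which binds fibronectin, fell by 1.63 on the log2 scale. Very long genes of this list differed between the day-2 libraries. Hspg2 (perlecan) had 175 and 360 CPM in day-2 cells, against 443 CPM in undifferentiated cells, and Lama5 had 371 and 571 CPM in day-2 cells, against 349 CPM in undifferentiated cells. The atypical cadherin gene Fat1 showed the same gap, with 584 and 1080 CPM in day-2 cells, against 350 CPM in undifferentiated cells.

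Of 21 YAP and SRF response genes tested 8 rose (3, 5 and 8), 2 fell and 11 were not called, with a median of 0.56. Vcl (vinculin), an SRF target, was among those not called, with 141 and 178 CPM in day-2 cells, against 108 CPM in undifferentiated cells. Myl9, a regulatory myosin light chain, had 18.9 and 18 CPM in day-2 cells, against 1 read in undifferentiated cells, a ratio of 120 (21.4 to 4770; adjusted p = 5.5e-13). Tpm1 and Tpm2, tropomyosins, rose by 1.49 ± 0.19 and 2.74 ± 0.34, and Srf itself by 1.18 ± 0.18. Of contractile genes of smooth muscle, Tagln and Acta2 rose by 4.93 ± 0.44 and 3.96 ± 0.53, and Cnn1 had 17.6 and 16.8 CPM in day-2 cells, against 3 reads in undifferentiated cells, a ratio of 37.5 (12.7 to 183). These 3 calls were lost when all 19 libraries shared the spread and without either day-2 library (adjusted p from 0.0958 to 0.612), and that of Tagln against the colony lines as well. Tpm1 was not called without either day-2 library (adjusted p = 0.111 and 0.0774), nor Tpm2 without library 1 (adjusted p = 0.073). Against the colony lines, in which Acta2 ran from 1.18 to 87.1 CPM of reads in genes, its difference turned to -1.03 and was not called. The YAP target Ctgf fell to 51.6 and 56 CPM in day-2 cells, against 137 CPM in undifferentiated cells, a call lost with the pooled spread, against the colony lines and without either day-2 library (adjusted p = 0.224 and 0.192). Its difference from the sorted lines was 0.01. Tead4, a partner of YAP, fell by 4.49 on the log2 scale, while Tead2 and Yap1 were not called.

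Guidance cues known from the nervous system moved both ways. Of 25 semaphorins and plexins tested 8 rose and 4 fell. Beside Sema6a, the semaphorins Sema4c, Sema3c and Sema3e rose by 3.10 ± 0.29, 4.17 ± 0.51 and 2.33 ± 0.29, and the receptor Plxnb1 by 2.46 ± 0.22. Of 17 ephrins and Eph receptors 3 rose and 2 fell. The ligand Efnb2 had 33.9 and 34.7 CPM in day-2 cells, against 1.38 CPM in undifferentiated cells (4.62 ± 0.35), and the receptor Epha1 had 78.3 and 84.1 CPM in day-2 cells, against 8.29 CPM in undifferentiated cells. Epha2 and Epha4 fell by 1.88 and 3.46 on the log2 scale. Of 16 netrin, Slit and neurotrophin genes 5 rose and 4 fell. Ntn1, the secreted cue netrin-1, had 0.257 and 0.586 CPM in day-2 cells, against 53.9 CPM in undifferentiated cells (-6.97 ± 0.34, adjusted p = 2.1e-20), and its receptor gene Unc5b rose by 1.73 ± 0.21, while the receptor gene Neo1 was short of 2-fold.

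Genes that bring fatty acids into mitochondria fell. Of 25 fatty acid oxidation and ketone genes tested 8 fell and 3 rose, with a median of -0.33. Cpt1a, which commits long-chain fatty acids to mitochondria, had 12.2 and 12.7 CPM in day-2 cells, against 137 CPM in undifferentiated cells (-3.46 ± 0.18, adjusted p = 7.0e-20). Slc25a20, the carrier for the same acyl-carnitines, had 10.3 and 8.20 CPM in day-2 cells, against 93.1 CPM in undifferentiated cells (-3.33 ± 0.19). The dehydrogenases Acadm and Acads, the thiolase Acaa2 and the ketone enzyme Bdh1 fell by 1.47 to 2.27 on the log2 scale. Acsl4, which activates polyunsaturated fatty acids, rose by 1.81 ± 0.19. The thioesterase genes Acot1 and Acot2 rose too, but they are near-identical copies, for which only uniquely aligned reads were counted. Of 25 sterol and fatty acid synthesis genes 1 rose and 0 fell by edgeR; 4 were lower at an unadjusted p under 0.05, and DESeq2 found 0 lower. Fasn, the fatty acid synthase, had 896 and 1120 CPM in day-2 cells, against 774 CPM in undifferentiated cells.

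In sugar and amino acid metabolism, transporters and a few enzymes changed. Of 26 glycolysis genes 4 fell and 2 rose, shares of 15.4% and 7.69%. The glucose transporter Slc2a3 had 196 and 189 CPM in day-2 cells, against 783 CPM in undifferentiated cells (-2.02 ± 0.16), and the phosphofructokinase Pfkp had 46.3 and 44.4 CPM in day-2 cells, against 241 CPM in undifferentiated cells (-2.41 ± 0.16). Slc16a3, which exports lactate, had 355 and 309 CPM in day-2 cells, against 69.5 CPM in undifferentiated cells (2.26 ± 0.19), a call lost when all 19 libraries shared the spread and without either day-2 library (adjusted p = 0.338 and 0.311). Gapdh, Pkm and Ldha were not called, although Ldha had 1520 and 1300 CPM in day-2 cells, against 769 CPM in undifferentiated cells (0.88 ± 0.19, adjusted p = 0.00021). Of 27 serine, threonine, proline and folate enzymes 4 fell and 0 rose by edgeR; 7 were higher at an unadjusted p under 0.05, and DESeq2 found 2 higher, with no 2-fold rule. Tdh, the threonine dehydrogenase on which mouse ES cells depend, had 110 and 94.3 CPM in day-2 cells, against 857 CPM in undifferentiated cells (-3.07 ± 0.17, adjusted p = 7.4e-19). Bcat1, a branched-chain aminotransferase, and Asns, the asparagine synthetase, fell by 2.49 and 2.05 on the log2 scale. Of 24 transporters of amino acids, peptides and sugars 5 rose (4, 3 and 4) and 4 fell (2, 3 and 3). The glutamine and alanine carrier Slc38a2 rose by 1.38 ± 0.18, and the arginine carrier Slc7a1 fell by 1.54 on the log2 scale. Slc38a2 was not called against the colony lines, nor Slc7a1 without day-2 library 1 (adjusted p = 0.0507).

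Of 17 carbonic anhydrase and proton carrier genes tested 7 rose (5, 5 and 4), 1 fell and 9 were not called, with a median of 0.91. The rises of Car12 and the bicarbonate carrier Slc4a4 were not called by DESeq2 or without either day-2 library (adjusted p = 0.0646 and 0.123 for Car12, 0.0739 and 0.445 for Slc4a4). Beside Car4, the cytosolic enzyme Car2 had 175 and 143 CPM in day-2 cells, against 20.9 CPM in undifferentiated cells (2.93 ± 0.21), and Car14 had 17.1 and 11.4 CPM in day-2 cells, against 0.614 CPM in undifferentiated cells (4.51 ± 0.49). Of 19 polyamine, urea and creatine genes 4 fell and 1 rose. Ass1, the argininosuccinate synthetase, had 183 and 175 CPM in day-2 cells, against 505 CPM in undifferentiated cells (-1.50 ± 0.16), and Sat1, which breaks down polyamines, fell by 1.92 on the log2 scale. Arg2, the mitochondrial arginase, rose to 6.29 and 14.7 CPM in day-2 cells, against 1.07 CPM in undifferentiated cells, a call lost without day-2 library 2 (adjusted p = 0.0505).

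Of 26 AMPK pathway genes, 3 fell and 0 rose by edgeR; 6 were higher at an unadjusted p under 0.05, and DESeq2 found 1 higher, with no 2-fold rule. Their median was 0.07, and the 3 genes that fell made 11.5%, near the share of all genes. Beside Cpt1a, these were Ulk1, the kinase that starts autophagy, with 30.2 and 38.1 CPM in day-2 cells, against 218 CPM in undifferentiated cells (-2.68 ± 0.17, adjusted p = 6.2e-17), and Camkk2, a kinase that activates AMPK, which was not called with DESeq2, with the pooled spread or without day-2 library 2 (adjusted p = 0.0986). Of 26 lysosome and autophagy genes 5 fell and 1 rose, with a median of -0.37. Tfeb, the master factor of lysosome genes, had 5.13 and 5.71 CPM in day-2 cells, against 60.3 CPM in undifferentiated cells (-3.47 ± 0.22), and its relative Mitf fell by 2.93 on the log2 scale. Rragd, a GTPase that recruits these factors to lysosomes, rose by 1.62 ± 0.20. The membrane protein Lamp1 had 494 and 488 CPM in day-2 cells, against 550 CPM in undifferentiated cells.

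**Figure D4:**
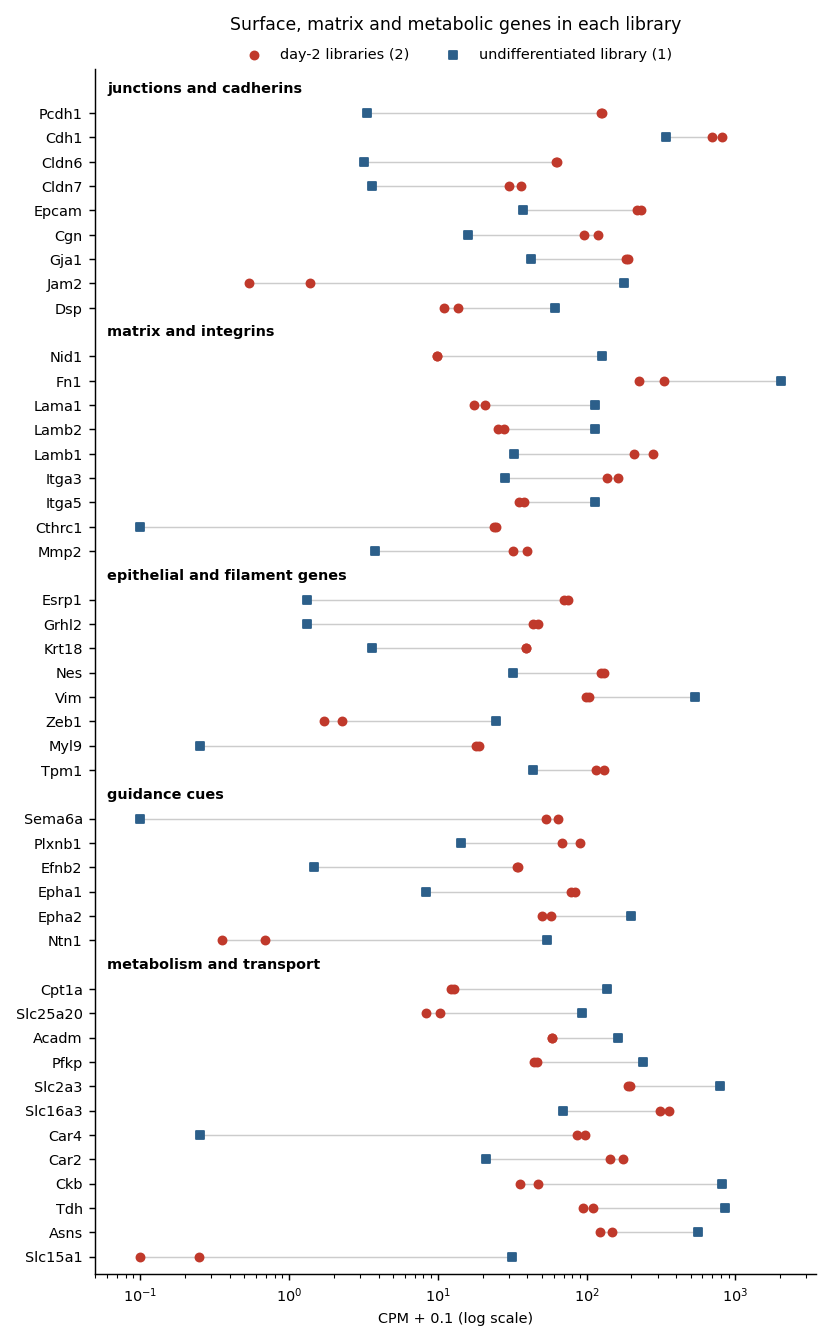
Levels of surface, matrix, filament, guidance and metabolic genes in each library, in CPM + 0.1 on a log axis, with the 2 day-2 libraries as red circles and the undifferentiated library as blue squares. Junction genes such as Pcdh1 (127 and 125 CPM, against 3.22 CPM) lie mostly right of the square, and matrix and fatty acid genes such as Nid1 and Cpt1a lie left of it.

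Genes of respiration and of the ribosome were slightly lower nearly throughout. All 31 oxidative phosphorylation genes tested had log2 fold changes below 0, from -2.81 to -0.15, with a median of -0.54. By edgeR 17 of them had an adjusted p under 0.05, 1 of them past 2-fold in both day-2 libraries and so called (Cox7a1, -2.81 ± 0.33), and 0 rose; 0 were higher at an unadjusted p under 0.05 and 0 by DESeq2. Cox4i1, a subunit of complex IV, had 415 and 374 CPM in day-2 cells, against 678 CPM in undifferentiated cells (-0.78 ± 0.17). Of 32 cytosolic ribosomal protein genes 31 were below 0, with a median of -0.23 and 0 called by edgeR. At an unadjusted p under 0.05, 4 were lower, and DESeq2 found 2 lower. Of 20 genes of G2 and mitosis 0 were called by edgeR, 1 was higher and 3 were lower at an unadjusted p under 0.05, and DESeq2 found 0. Mki67, the proliferation antigen, had 372 and 481 CPM in day-2 cells, against 406 CPM in undifferentiated cells. Of 21 purine and pyrimidine synthesis genes 0 were called by edgeR, 5 were higher and 3 lower at an unadjusted p under 0.05, and DESeq2 found 1 each way. The part of the length difference between the day-2 libraries in these shifts was not tested.

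The G1 regulators changed singly, with 4 of 22 lower (3, 4 and 2) and 2 higher. Cdkn1c, an imprinted CDK inhibitor, had 18.4 and 17 CPM in day-2 cells, against 1.69 CPM in undifferentiated cells (3.38 ± 0.37), and the cyclin gene Ccnd3 fell by 1.63 on the log2 scale. Cdkn1a, the CDK inhibitor p21, had 21.8 and 22.1 CPM in day-2 cells, against 50.2 CPM in undifferentiated cells, a fall not called against the sorted or colony lines. Of 26 p53 and apoptosis genes 7 rose (5, 4 and 3) and 1 fell. Of the 7, 4 encode BH3-only death proteins, Pmaip1 (Noxa, 2.76 ± 0.28), Bbc3 (Puma, 1.58 ± 0.27), Bmf and Bcl2l11 (Bim). The others were Bcl2, which blocks cell death, at 1.67 and 2.93 CPM in day-2 cells, against 3 reads in undifferentiated cells, a ratio of 4.90 (1.54 to 25), and the p53 targets Btg2 (1.84 ± 0.32) and Perp (1.08 ± 0.34). Bcl2 and Perp were not called by DESeq2 or without either day-2 library (adjusted p = 0.133 and 0.348 for Bcl2, 0.325 and 0.353 for Perp). Bmf and Bcl2l11 were not called by DESeq2, nor Bcl2l11 without day-2 library 2 (adjusted p = 0.0711). The gene of this list that fell was Cdkn1a, by 1.19 on the log2 scale. Trp53 itself had 341 and 293 CPM in day-2 cells, against 452 CPM in undifferentiated cells.

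Of 23 stress genes 3 rose and 3 fell. Ddit4, an inhibitor of mTOR signalling, had 76.6 and 76.5 CPM in day-2 cells, against 12.4 CPM in undifferentiated cells (2.62 ± 0.21), and the metallothioneins Mt1 and Mt2 rose by 1.63 ± 0.19 and 2.02 ± 0.20. Hspb1, a small heat-shock protein, had 147 and 121 CPM in day-2 cells, against 830 CPM in undifferentiated cells (-2.63 ± 0.17, adjusted p = 1.1e-16). Of 19 interferon and innate immune genes 6 rose and 5 fell. Bst2 (tetherin) had 123 and 104 CPM in day-2 cells, against 17.2 CPM in undifferentiated cells (2.72 ± 0.21), and the antigen processing genes Tap1 and Psmb8 rose, whereas the viral RNA sensors Oas1a and Ddx58 fell by 4.10 and 2.53 on the log2 scale. Oas1a was not called when either day-2 library was left out (adjusted p = 0.0798 and 0.0622).

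Of 17 DNA methylation and demethylation genes 4 rose and 2 fell. Dnmt3b had 1890 and 1790 CPM in day-2 cells, against 143 CPM in undifferentiated cells (3.69 ± 0.22, adjusted p = 1.1e-17), and Dnmt3a had 576 and 560 CPM in day-2 cells, against 55.9 CPM in undifferentiated cells (3.35 ± 0.21). Both write new methylation. Tet2, which oxidises methylcytosine, had 11 and 11.4 CPM in day-2 cells, against 163 CPM in undifferentiated cells (-3.85 ± 0.18, adjusted p = 2.8e-21), and Tet3 rose by 1.35 ± 0.29, a call lost with DESeq2, against the sorted lines and without day-2 library 2 (adjusted p = 0.0785). Dnmt1 and Uhrf1, which maintain methylation, were not called. Gadd45g rose by 3.60 ± 0.32 and Gadd45b fell by 2.02 on the log2 scale. Of 31 Polycomb, trithorax and histone demethylase genes 4 rose (3, 3 and 2) and 2 fell, and of 27 remodellers and histone variants 1 rose and 2 fell, shares of 3.70% and 7.41%. The shares of the Polycomb, trithorax and demethylase list, 12.9% higher and 6.45% lower, were near those of all genes. The Polycomb subunit Eed had 135 and 126 CPM in day-2 cells, against 313 CPM in undifferentiated cells. The demethylase Kdm3a fell by 1.57 on the log2 scale. H2afy, the variant macroH2A1, had 26.7 and 23.1 CPM in day-2 cells, against 144 CPM in undifferentiated cells (-2.53 ± 0.17).

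Transcription factor families held rises and falls side by side. Of 18 Sox, Pou, Zic and Irx genes tested, of 28 listed, 7 rose and 4 fell. Sox11, Sox3 and Sox4, which act in early neural and progenitor cells, rose by 3.02 ± 0.29, 2.71 ± 0.27 and 2.06 ± 0.22. Sox2 had 96.4 and 66.7 CPM in day-2 cells, against 341 CPM in undifferentiated cells (-2.06 ± 0.17), and Sox15 and Sox21 fell by 2.86 and 5.01 on the log2 scale. Of 18 nuclear receptors 2 rose and 3 fell, shares of 11.1% and 16.7%, against 10.7% and 8.33% of all genes tested. The 3 are receptors of the naive state, with Esrrb at 11.3 and 8.20 CPM in day-2 cells, against 342 CPM in undifferentiated cells, and Nr0b1 and Nr5a2 lower by 5.05 and 5.02 on the log2 scale. Nr2f6 rose by 1.51 ± 0.20. Of 27 RNA-binding and small RNA factors 3 rose and 1 fell, near the shares of all genes. Lin28a and Lin28b, which block let-7 microRNAs, rose by 1.69 ± 0.19 and 1.77 ± 0.29; Lin28a was not called against the sorted or colony lines, nor Lin28b without day-2 library 2 (adjusted p = 0.0549). The pluripotency lists gave 15 of 18 naive genes lower and 0 higher by edgeR (0 higher also at an unadjusted p under 0.05 and by DESeq2), and 13 of 20 epiblast genes higher and 1 lower, directions for which those lists were chosen. The naive genes Gbx2, Dppa3 and Fgf4 were not called, and Dppa3 was higher in day-2 cells than in the colony lines (1.72). Of 18 general pluripotency genes 3 rose and 3 fell. Nanog had 60.3 and 46 CPM in day-2 cells, against 570 CPM in undifferentiated cells, and Klf4 had 10.1 and 15.8 CPM in day-2 cells, against 237 CPM in undifferentiated cells.

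Summed markers of germ layers and extraembryonic tissues stood below their day-15 levels. The 20 primitive streak genes summed to 28.2 and 31.2 CPM of reads in genes in the day-2 libraries, against 32.9 CPM in undifferentiated cells and 478 CPM in the day-15 library, and Mesp1 and Cer1 had 0 reads at day 2. Of 5 that passed the filter, Wnt3, Fgf8 and Fst, an inhibitor of activin, rose (0, 0 and 0) and Eomes fell, by 1.34 on the log2 scale. The sums that follow are on the same scale. Neural markers summed to 317 and 352 CPM in day-2 cells, against 436 CPM in undifferentiated cells and 900 CPM at day 15. Inside that sum the genes moved apart, with 6 of 12 tested higher, 2 lower and a median of 1.39. Kif1a, a neuronal motor protein, had 61.6 and 85 CPM in day-2 cells, against 0.614 CPM in undifferentiated cells (6.86 ± 0.38), while the microtubule genes Stmn2 and Tubb3 fell by 2.99 and 1.56 on the log2 scale. Neural crest markers summed to 64.1 and 48 CPM in day-2 cells, against 103 CPM in undifferentiated cells and 267 CPM at day 15. Pax3 and Tfap2b had 0 reads at day 2. Tfap2c, also a trophoblast marker, made 3.4 and 2.25 CPM of the day-2 sums and 46.8 CPM of the undifferentiated sum. Endoderm markers summed to 678 and 735 CPM in day-2 cells, against 899 CPM in undifferentiated cells and 15700 CPM at day 15. Apoa1, Ttr and Afp had 0 reads at day 2. Apoe alone made 429 and 407 CPM of the day-2 sums and 845 CPM of the undifferentiated sum. The fall of Apoe exceeded that of the sums. On the same list the endocytic receptor Lrp2, a long gene, rose to 168 and 254 CPM in day-2 cells, against 15 CPM in undifferentiated cells (3.81 ± 0.24). Trophoblast markers summed to 282 and 377 CPM in day-2 cells, against 174 CPM in undifferentiated cells and 1150 CPM at day 15. The imprinted gene Peg10 made 245 and 335 CPM of the day-2 sums. The rise of Peg10 was not called when either day-2 library was left out (adjusted p = 0.0525 and 0.135). Of the other trophoblast markers, Tpbpa and Prl3d1 had 0 reads at day 2, and Tfap2c fell by 4.12 on the log2 scale.

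Mesenchyme and matrix markers were at low levels. They summed to 145 and 185 CPM in day-2 cells, against 92.9 CPM in undifferentiated cells and 49500 CPM in the day-15 library. Of 15 tested, 8 rose (4, 5 and 4) and 1 fell, with a median of 2.06. Beside Cthrc1, Mmp2, a matrix protease, had 31.7 and 39.7 CPM in day-2 cells, against 3.68 CPM in undifferentiated cells (3.27 ± 0.30), and Col5a2, a fibrillar collagen, had 17.3 and 18.3 CPM in day-2 cells, against 2.30 CPM in undifferentiated cells, a call lost without either day-2 library (adjusted p = 0.0644 and 0.0762). The calls of Col1a2 and Col6a2 were lost in the same fits (adjusted p = 0.708 and 0.84, 0.0946 and 0.155), and that of Thy1 without day-2 library 1 (adjusted p = 0.0646). Lum, Fap and S100a4 had 0 reads at day 2. Endothelial and blood markers summed to 48.7 and 49.2 CPM in day-2 cells, against 195 CPM in undifferentiated cells and 337 CPM at day 15. Fli1 and Hbb-bh1 had 0 reads at day 2. Kit, the stem cell factor receptor, made 9.27 and 10.5 CPM of the day-2 sums and 97.9 CPM of the undifferentiated sum. The part that rare cells of another type had in any of these results was not tested.

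Genes of the 2-cell embryo were higher in both day-2 libraries but at unequal levels, and without library 2 a single one was called. Of 13 tested 11 rose (6, 1 and 9) and 0 fell by edgeR; 1 was lower at an unadjusted p under 0.05, and DESeq2 found 0 lower. Zscan4f, of a family of near-identical zinc finger genes, had 397 and 714 CPM in day-2 cells, against 79 CPM in undifferentiated cells (2.81 ± 0.24). Only uniquely aligned reads were counted. The Zscan4 copies moved together, so they are not independent counts. Dux, the factor that switches these genes on, had 6.93 and 11.1 CPM in day-2 cells, against 1.07 CPM in undifferentiated cells. The list summed to 1700 and 3170 CPM in day-2 cells, against 480 CPM in undifferentiated cells. The calls of Zscan4b, Zscan4c, Zscan4d and Zscan4f were lost when all 19 libraries shared the spread and without either day-2 library (adjusted p from 0.0512 to 0.196), and those of Zscan4a, Zscan4e, Tdpoz3 and Dux without day-2 library 2 (adjusted p = 0.164, 0.161, 0.146 and 0.062).

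Germline genes moved both ways, with 9 of 23 higher and 4 lower. Mael and Tdrd1, of the piRNA pathway, rose, Mael by 2.58 ± 0.27 and Tdrd1 to 8.60 and 12.2 CPM in day-2 cells, against 3 reads in undifferentiated cells, a ratio of 22.3 (7.48 to 109), and the synaptonemal gene Sycp1 by 3.68 ± 0.45. Khdc3, an oocyte gene, had 2 reads in day-2 cells, against 136 in undifferentiated cells, and was 153-fold lower (41.4 to 1270). Nanos3 was at least 22.4-fold lower, with 0 reads at day 2. Of 27 imprinted genes 12 rose (7, 7 and 10) and 2 fell, with a median of 1.16. Rian, a noncoding RNA of the Dlk1-Dio3 cluster, had 1030 and 1010 CPM in day-2 cells, against 246 CPM in undifferentiated cells (2.05 ± 0.19), and Meg3, counted under a joined name with microRNAs, had 615 and 830 CPM in day-2 cells, against 152 CPM in undifferentiated cells (2.25 ± 0.21). Both noncoding RNAs lie in the same cluster, so they are not independent counts. Dlk1, the protein gene of that cluster, rose by 2.82 ± 0.47, and H19, also under a joined name, by 2.74 ± 0.30, a call lost when all 19 libraries shared the spread and without either day-2 library (adjusted p = 0.448 and 0.263). Plagl1, a zinc finger factor, had 3.59 and 3.96 CPM in day-2 cells, against 55.7 CPM in undifferentiated cells (-3.88 ± 0.24).

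Channels and small GTPases held further large single changes. Of 24 ion channel and calcium genes 7 rose (5, 2 and 3) and 5 fell. Kcnk1, a potassium leak channel, had 56.1 and 42.9 CPM in day-2 cells, against 2.30 CPM in undifferentiated cells (4.42 ± 0.31), and the calcium release channel Itpr3 fell by 1.60 on the log2 scale, though not when set against the colony lines. Of 28 small GTPases and regulators 5 rose and 2 fell, shares of 17.9% and 7.14%, against 10.7% and 8.33% of all genes tested. Beside the loss of Mras, Rab25, a trafficking GTPase of epithelia, had 13 CPM in each day-2 library, against 3 reads in undifferentiated cells, a ratio of 28.2 (9.52 to 138). Rac1, Cdc42 and Rhoa were not called.

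The other groups of the study show which of these levels were shared, as a description on the scale of CPM of reads in genes. Tmem54 had 23.6 and 21.9 CPM at day 2 and at most 1.12 CPM in the AICAR GFP-positive libraries, and stood at 0.778 CPM at day 15 and at 0 in the undifferentiated library. Sema6a had 53.9 and 65.4 CPM at day 2, 50.1 CPM in AICAR GFP-negative cells and 68.7 CPM at day 15. It was lower in the AICAR GFP-positive libraries, at 4.23 to 16.6 CPM, and in the unfractionated AICAR culture, at 25.5 CPM. Only AICAR GFP-positive library 3, with 16.6 CPM, carries the project code of the day-2 libraries (W0013) in its file header. What part the project had in these levels was not tested. Trpm1 and Cdx1 were high again in the lines grown with LIF and both inhibitors, with 45.2 to 65.3 and 19.8 to 34.3 CPM in the 8 colony lines, against 63.4 and 43 CPM in undifferentiated cells. In AICAR GFP-positive cells Jam2 had 109 to 239 CPM, against 1.31 and 0.45 CPM in day-2 cells, whereas Trpm1 had 1.62 to 3.22 CPM. Nid1 and Vim, low at day 2, were highest at day 15, with 1200 and 1800 CPM. Set against the 8 colony lines in place of the undifferentiated library, the day-2 cells had 1583 genes higher and 998 lower, of which 1141 and 784 were shared with the genes called here, 83.8% and 74.1% of them.

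**Figure D5:**
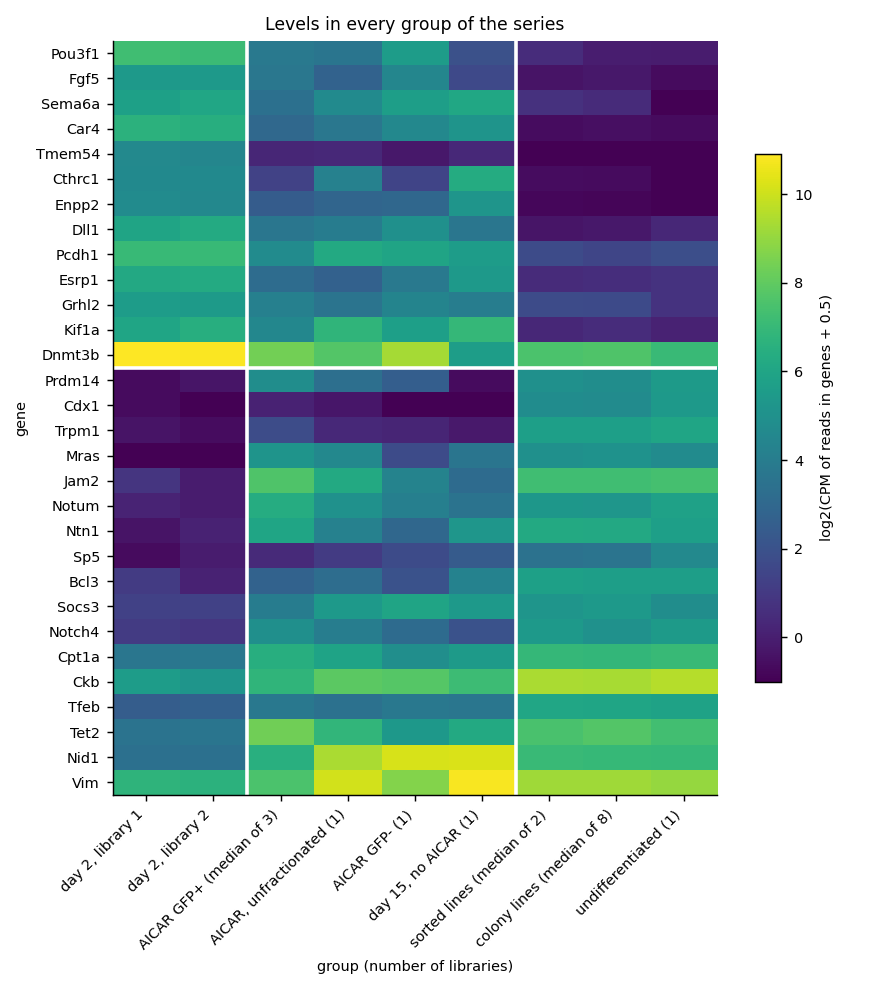
Levels of 30 genes (rows) in the groups of the series (columns), as log2 of CPM of reads in genes + 0.5, with groups of several libraries shown by their median and the number of libraries in parentheses. The upper 13 rows are genes called higher in day-2 cells and the lower 17 genes called lower. The sorted and colony lines show levels close to the undifferentiated library in most rows, for example Trpm1, and Tmem54 is high in the day-2 columns.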

How the data were processed

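Stranded mRNA libraries were sequenced. The submitters' processing notes name Trimmomatic 0.3.3, TopHat2 2.0.14, Bowtie2 2.2.5 and build mm9 of the mouse genome. Per the file headers, the authors counted unique alignments with the program rpkmforgenes, so each deposited count is a whole number of reads per gene. From those counts the authors derived RPKM, per the file headers, without the 3' untranslated part of each gene.

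The 2 day-2 libraries and the undifferentiated library were compared with edgeR 4.0.16 in R 4.3.3 (quasi-likelihood test, TMM scaling, minimum count 10 and total 15, Benjamini-Hochberg adjustment). CPM are scaled by the TMM factors. A gene was called at an adjusted p under 0.05 with more than 2-fold in the same direction in both day-2 libraries (prior count 2). The script was tested on simulated data. Errors are standard errors of the log2 fold change. Intervals (95%) and the floor of 3 reads for a group without reads cover counting error only.

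The members and the 56 gene lists were chosen with earlier results of these data known. Named genes are the 20 largest called changes each way whose higher group reached 2 log2 CPM, up to 8 called and 4 uncalled members of a list, and 9 marker genes. The genes introduced by the rule on abundance, and Ror1, Zeb2, Lifr, Dsg2, Pkp2, Lamc1, Krt8, Srf, Acot2 and Dlk1, were chosen after their values were seen.

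Alternatives were DESeq2 1.42.0, its size factors, 2 other count filters, another prior count, spread pooled over all 19 libraries, each day-2 library left out, and the sorted or colony lines as reference. Some genes are not reported here.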

Additional observations from a re-analysis of the deposited data

How the results depend on the processing

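The counts were 1362 genes higher and 1058 lower in day-2 cells. With at least 100 reads in 1 library, they came to 588 higher and 588 lower, since fewer genes were tested. With DESeq2 they came to 746 and 685, and the cause was not tested. Leaving out each day-2 library in turn gave 825 to 993 genes higher and 929 to 945 lower. All other alternatives kept both counts within 1.5 times, and in no alternative was a called gene called in the opposite direction. Of the 558 named genes, differences turned round for Dppa3 (1.72), Egr2 (0.22) and Acta2 (-1.03) against the 8 colony lines and for Ctgf (0.01) against the 2 sorted lines. The cause was not tested. Calls were lost for 46 named genes with DESeq2, 46 with the spread of all libraries pooled, 65 and 73 without day-2 library 1 and 2, and 25 and 40 against the sorted and colony lines. Counting intervals were wide where the undifferentiated library held 1 to 3 reads, such as 49.1 to 10900 for Fgf5. No paired analysis was possible because the undifferentiated group holds 1 library.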
